A study of Mus musculus with 8 samples.

Results

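Fatty acid oxidation and its main transcriptional driver in liver, the nuclear receptor PPAR alpha, were followed through 44 named genes in mouse liver tissue. A gene was matched to the array by its symbol, and where it had several probes the probe with the highest mean over the 8 arrays stood for it. Of the 44 symbols, 41 had a probe, out of 19321 genes on the array. All 41 were listed above the blank level on all 8 arrays and were tested. Acsl1, Cpt1b and Ucp2 are not analysed here, because no probe was paired with those symbols.

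In the liver, fatty acids are oxidised in mitochondria after carnitine carries them across the inner membrane. Very long, branched and dicarboxylic chains are first shortened in peroxisomes, and omega-hydroxylases of the Cyp4a family open the way to the dicarboxylic chains. PPAR alpha binds fatty acids, pairs with the receptor RXR and raises transcription of many of these enzymes in fasting and under fat load. Part of the acetyl-CoA they make leaves the liver as ketone bodies.

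Total RNA was measured on 1-colour (Cy5) oligonucleotide arrays in 3 groups of liver tissue. All mice had received DMBA, a polycyclic hydrocarbon carcinogen, at 4 to 5 days of age and had then been kept on their diet for 30 weeks. The groups were normal diet liver (2 arrays, mice 117 and 120), non-tumour tissue of high fat diet livers (3 arrays, mice 117, 186 and 1) and tumour tissue of high fat diet livers (3 arrays, mice 117, 186 and 1). A shared number links the tumour and non-tumour arrays of 1 liver, whereas number 117 on normal diet, given the other diet, was taken to be another animal. Strain and sex are not given in the labels, no group was without DMBA, and 1 tumour sample stood for each mouse.

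Levels below are the deposited normalized intensities, linear values scaled so that the median listed probe of each array is 25. Fold changes are differences of log2 spot signal after background correction, an added offset of 50 and quantile normalization, so the change of dim genes is understated. A call means an adjusted p below 0.05 in limma, adjusted over all 16799 genes tested. Between 81.8% and 88.5% of probes were listed per array, and arrays correlated at 0.984 to 0.996 within groups and at 0.919 to 0.983 between groups. The scanner slope in the file headers was 0.216 on both normal diet arrays and 0.232 to 0.235 on the 6 high fat arrays, so scan setting and diet cannot be told apart. The tissue was bulk liver, where fewer cells of a type and less RNA per cell cannot be told apart. Of the hepatocyte markers read on these arrays, Alb, the gene of serum albumin, lay between 44979.7 and 56457.9. Other markers differed in tumour against non-tumour: Cyp2e1 (-2.69) and Cps1 (-1.07) were called lower, Apoa1, Fgb and Ahsg were called higher, and Tat was at -1.35 (adjusted p = 0.0628).

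The set as a whole was lower in tumour than in the non-tumour tissue of the same livers. Of 41 genes, 29 were called lower (13.4% of all genes tested were), 2 were called higher (12% of all genes) and 10 were not called. The median log2 change of the 41 was -0.68, against -0.01 over all genes. On deposited levels, 33 of the 41 had every tumour array below every non-tumour array, as had 23.3% of the 15505 genes listed on all arrays of both groups, and 2 had every tumour array above, as had 15.2%. Between non-tumour and normal diet liver the genes moved less. There 8 of 41 were called higher (1.81% of all genes tested) and 2 lower (2.04%), 3.85% in either direction, with a median of 0.44 against 0.00. Levels in non-tumour tissue lay wholly above normal diet liver for 18 of 41 genes and wholly below for 9, as they did for 13% and 31.7% of 15706 genes listed throughout. Tumour against normal diet liver gave 5 higher (12.9% of all genes) and 11 lower (15% of all genes), with a median of -0.23 against -0.01. Tumour levels lay wholly below normal diet liver for 32 of 41 genes and wholly above for 5, as they did for 40.1% and 16.7% of 15513 genes. The 3 comparisons share arrays, so their values stand side by side and are not independent.

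**Figure D1:**
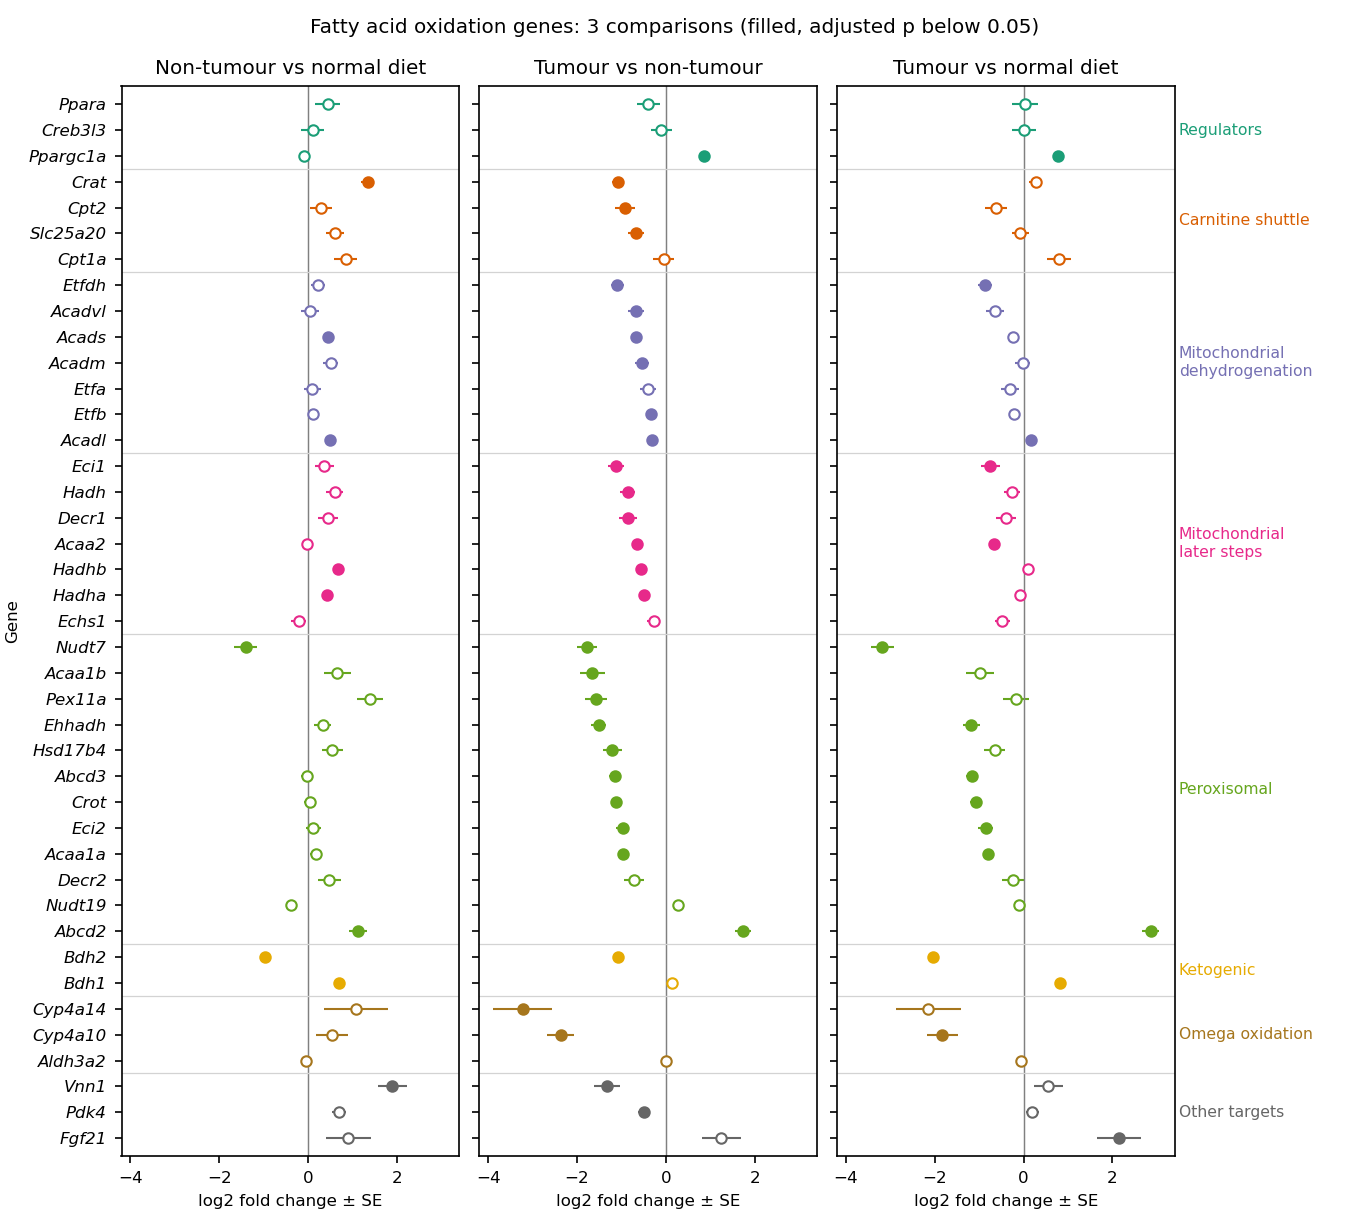
Log2 fold change (x axis) with its standard error for each of the 41 genes (y axis), in role groups, for the 3 comparisons. Filled points have an adjusted p below 0.05. In the middle panel nearly all points lie left of 0, with Cyp4a14 at -3.22 farthest to the left and Abcd2 at 1.73 farthest to the right.

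The size of these counts depended on scaling and on single arrays. Deposited values were also fitted in place of quantile normalization. In the order tumour against non-tumour, non-tumour against normal diet and tumour against normal diet, the members called were then 35, 7 and 28. In that order the median of all genes was -0.06, -0.11 and -0.18. The median of the members was -1.03, 0.26 and -0.77, against -0.68, 0.44 and -0.23 with quantile normalization. Of the calls, 23 of 31 in tumour against non-tumour, 1 of 10 in non-tumour against normal diet and 10 of 16 in tumour against normal diet held without each array in turn. In the diet comparison Acadl was the gene whose call held without each array. The member median there was 0.38 without normal diet 117 and 0.44 without normal diet 120, against 0.44 with all arrays. Calls over all genes fell from 304 higher and 342 lower to 193 and 180 without non-tumour 1. They were 138 and 118 without non-tumour 117, 132 and 125 without non-tumour 186, and 226 and 245 without tumour 117. In the same 4 fits the count of changed members fell from 10 to 4, 5, 4 and 6. In tumour against normal diet it fell from 16 to 10 without normal diet 117. With local background as the correction 4, 0 and 3 members were called, and the signs of Acaa2 against both other tissues and of Hadha with diet turned. Where 1 normal diet array was left, that array was assumed to vary like the other groups.

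**Figure D2:**
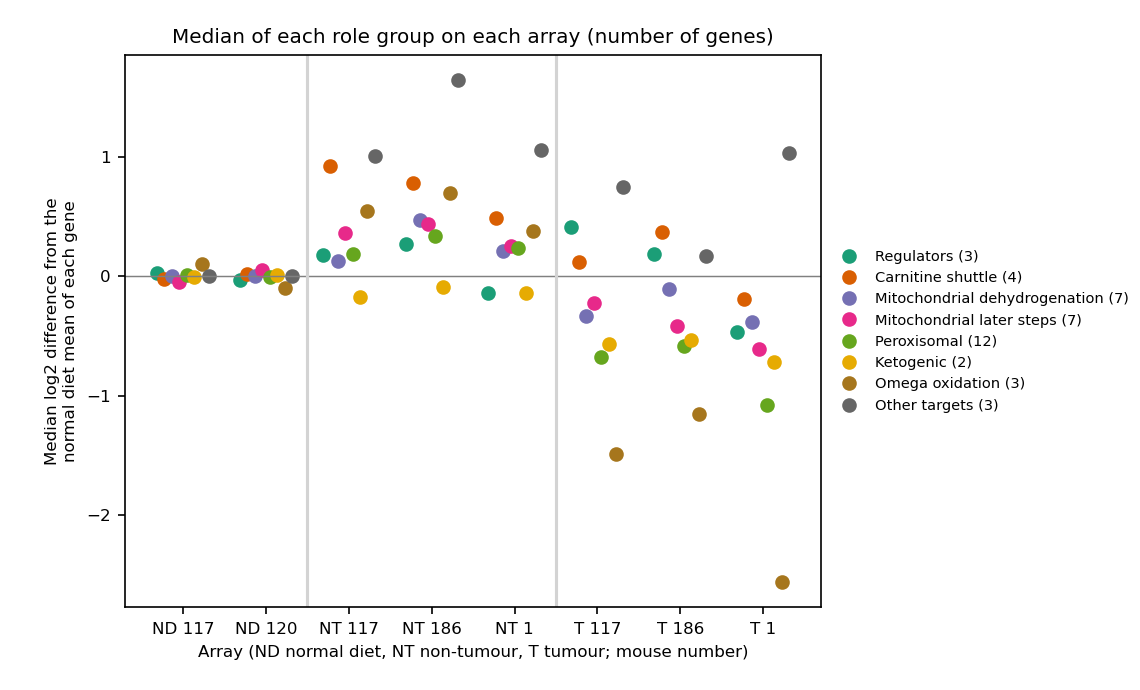
Median over each role group (number of genes in the legend) of the log2 difference from each gene's normal diet mean (y axis), on each of the 8 arrays (x axis). The carnitine shuttle median lies at 0.49 to 0.92 on the non-tumour arrays, and the omega oxidation median at -2.56 to -1.15 on the tumour arrays.

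Among the 3 regulators, PPAR alpha itself was not called in any comparison with quantile normalization. Ppara, on chromosome 15 (chr15:85734910-85806851, GRCm38.p6), had levels of 1063.3 and 899.1 in normal diet liver, 1276.2, 1363.1 and 922.7 in non-tumour tissue of mice 117, 186 and 1, and 899.0, 763.9 and 529.6 in the tumours of the same mice. Every tumour level was below every non-tumour level, and the ranges of normal diet and non-tumour tissue overlapped. The log2 change in tumour against non-tumour was -0.39 ± 0.26 (SE, adjusted p = 0.336), and with deposited values it was -0.71 and was called (adjusted p = 0.0407). Against normal diet liver the tumour difference was 0.04, and its sign turned with deposited values.

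Creb3l3, a liver transcription factor that acts with PPAR alpha on fasting genes, had levels of 1950.4 and 2262.5 in normal diet liver, 1926.8, 2044.6 and 1660.1 in non-tumour tissue and 1756.5, 1548.9 and 1070.2 in tumours. The tumour and non-tumour ranges overlapped, and the log2 change was -0.10 ± 0.23 (adjusted p = 0.817).

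Ppargc1a, the gene of the coactivator PGC-1 alpha, was the regulator with a call, and its 2 probes disagreed. On the brighter probe the levels were 81.9 and 71.1 in normal diet liver, 57.5, 71.1 and 60.3 in non-tumour tissue and 122.8, 149.1 and 150.4 in tumours. All tumour levels lay above all others, and the log2 change against non-tumour was 0.86 ± 0.07 (adjusted p = 0.000638). On the dimmer probe the levels were 60.4 and 47.4, then 60.1, 57.0 and 38.5, and then 28.9, 35.0 and 25.6 in tumours. There the tumour arrays were lowest, with a log2 change of -0.36 (adjusted p = 0.0476). With the mean of both probes the call ended in tumour against non-tumour (log2 change 0.25, adjusted p = 0.05) and in tumour against normal diet (0.21, adjusted p = 0.102). Which transcripts the probes read was not tested.

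**Figure D3:**
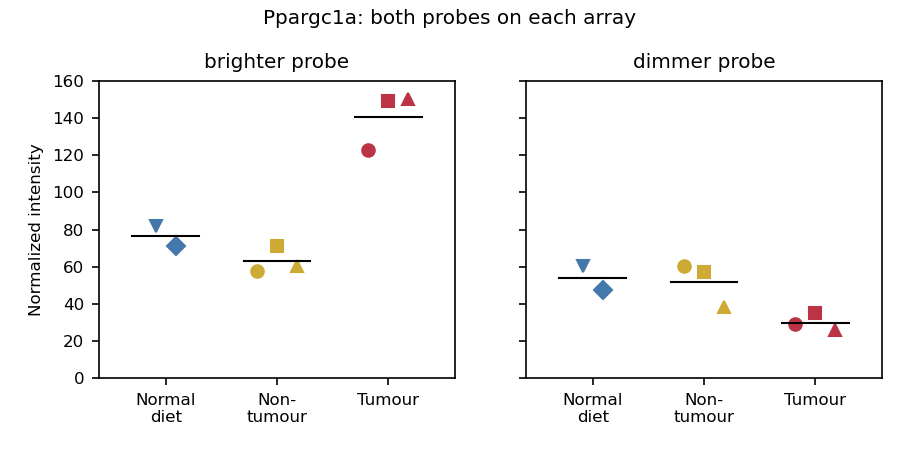
Normalized intensity (y axis) of the brighter and the dimmer probe of Ppargc1a on each array, by group (x axis), with bars at group means and symbols for mice. Tumour levels are 122.8 to 150.4 on the brighter probe, above all other arrays, and 25.6 to 35.0 on the dimmer probe, below all other arrays.

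In the carnitine shuttle, 3 of the 4 measured steps were called lower in tumour than in non-tumour tissue (13.4% of all genes tested were). All 4 had a positive change in non-tumour against normal diet, with 1 called higher (1.81% of all genes). The median in tumour against non-tumour was -0.80. Crat, the carnitine acetyltransferase, had levels of 121.8 and 94.2 in normal diet liver, 309.0, 281.4 and 386.2 in non-tumour tissue and 102.9, 145.7 and 107.5 in tumours. Tumours overlapped normal diet liver, and the non-tumour arrays lay above both groups. Its log2 change was 1.34 ± 0.14 with diet (adjusted p = 0.00789, and 0.0715 without normal diet 120) and -1.07 ± 0.13 in tumour against non-tumour (adjusted p = 0.00204).

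Cpt2, which frees the acyl group inside the mitochondrion, had levels of 790.8 and 886.2, then 1120.1, 772.6 and 895.1, and then 515.4, 372.8 and 314.6 in tumours. Slc25a20, the translocase of the inner membrane, had levels of 760.3 and 677.7, then 1024.6, 996.8 and 999.9, and then 532.1, 610.8 and 396.3 in tumours. Deposited tumour levels were below both other groups for each gene. The fit in tumour against normal diet was not called for Cpt2 (-0.62, adjusted p = 0.117) or Slc25a20 (-0.07, adjusted p = 0.831). The log2 change in tumour against non-tumour was -0.92 ± 0.22 for Cpt2 (adjusted p = 0.0269) and -0.68 ± 0.18 for Slc25a20 (adjusted p = 0.035). The call of Cpt2 ended without non-tumour 1, non-tumour 117, tumour 1 or tumour 186 (adjusted p up to 0.0789), and that of Slc25a20 without any 1 non-tumour array, any 1 normal diet array or tumour 117 (adjusted p up to 0.096) and with the mouse as a block (0.0629).

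Cpt1a, the entry step at the outer membrane and the rate-limiting enzyme of the pathway, was not called in the 3 comparisons. Its levels were 752.4 and 961.4 in normal diet liver, 1711.4, 1440.6 and 1056.4 in non-tumour tissue and 1269.2, 1089.7 and 954.9 in tumours. Non-tumour levels lay above normal diet levels, and tumour levels overlapped both groups. The log2 change was 0.85 ± 0.26 with diet (adjusted p = 0.141) and -0.05 ± 0.24 in tumour against non-tumour (adjusted p = 0.912). Tumour against normal diet gave 0.80 ± 0.26 (adjusted p = 0.0655). With median scaling the changes against normal diet were called in non-tumour tissue (1.08, adjusted p = 0.0479) and in tumours (0.80, adjusted p = 0.0421). The tumour difference was also called with an offset of 16 (0.83, adjusted p = 0.0424) and without non-tumour 1 (0.80, adjusted p = 0.0354).

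The mitochondrial beta-oxidation spiral was lower in tumours than in non-tumour tissue at nearly every step. Of its 14 measured enzymes, 12 were called lower in tumour against non-tumour (13.4% of all genes tested were) and 2 were not called. Their median was -0.61, with a range of -1.12 to -0.27. In non-tumour against normal diet 4 were called higher (1.81% of all genes) and 10 were not called, with a median of 0.40. Against normal diet liver, tumours had 3 called lower and 1 called higher, with a median of -0.28. Over all genes tested 15% were lower and 12.9% higher in that comparison. With deposited values all 14 were called lower in tumour against non-tumour (14.1% of all genes were), and the 4 diet calls ended.

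The first oxidation is carried by acyl-CoA dehydrogenases that differ in chain length. Of the 7 genes for this step and for electron transfer, 6 were called lower in tumour against non-tumour (13.4% of all genes tested were). Acadl, for long chains, had levels of 1140.3 and 1087.8 in normal diet liver, 1355.2, 1365.1 and 1416.1 in non-tumour tissue and 876.3, 843.2 and 956.5 in tumours. The 3 groups did not overlap, with non-tumour tissue highest and tumours lowest. Its log2 change was 0.49 ± 0.03 with diet (adjusted p = 0.00119) and -0.31 ± 0.02 in tumour against non-tumour (adjusted p = 0.000591). Tumour against normal diet was called higher at 0.17 ± 0.03 (adjusted p = 0.00482) after quantile normalization, while the deposited levels ran the other way and gave -0.32 (adjusted p = 0.112), so the direction of that difference depended on the scaling. The diet difference was not called with deposited values either (0.31, adjusted p = 0.238).

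Acads, for short chains, had levels of 547.0 and 610.2 in normal diet liver, 676.3, 721.8 and 804.6 in non-tumour tissue and 334.7, 398.8 and 393.9 in tumours. The order of the groups was that of Acadl, without overlap. Tumour against normal diet was not called in the fit (-0.23, adjusted p = 0.108). In log2 terms the difference was -0.68 ± 0.08 in tumour against non-tumour (adjusted p = 0.00208) and 0.45 ± 0.09 with diet (adjusted p = 0.0493). The diet call ended on leaving out any 1 array other than tumour 186 (adjusted p up to 0.253).

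Acadm, for medium chains, had levels of 4529.6 and 4590.7, then 5378.3, 5728.3 and 5132.7, and then 3270.2, 3434.9 and 2589.4 in tumours. Acadvl, for very long chains, had levels of 3438.8 and 3222.1, then 2714.3, 2412.2 and 3365.4, and then 1498.4, 1682.0 and 1187.4 in tumours. In both genes the deposited tumour levels were the lowest of the 8 arrays. The fit in tumour against normal diet was not called for Acadm (-0.02, adjusted p = 0.95) or Acadvl (-0.64, adjusted p = 0.056). The log2 change in tumour against non-tumour was -0.53 ± 0.16 for Acadm (adjusted p = 0.0488) and -0.68 ± 0.18 for Acadvl (adjusted p = 0.0343). Both calls ended without any 1 non-tumour array, any 1 normal diet array or tumour 117 (adjusted p up to 0.135 and 0.105), the block on mouse ended that of Acadvl (0.129), and the Acadm change shrank to -0.35 without tumour 1.

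Electrons from these enzymes pass through the flavoprotein ETF, with subunits Etfa and Etfb, to its dehydrogenase Etfdh and on to ubiquinone. Etfdh had levels of 1874.3 and 1787.4 in normal diet liver, 1483.6, 2152.1 and 1886.6 in non-tumour tissue and 645.3, 754.4 and 673.4 in tumours. Tumour levels were well below both other groups, which overlapped each other. The fitted log2 change was -1.09 ± 0.14 against non-tumour (adjusted p = 0.00303) and -0.86 ± 0.16 against normal diet (adjusted p = 0.00978, and up to 0.0665 without normal diet 117 or normal diet 120). Etfb fell by 0.33 on the log2 scale (adjusted p = 0.024, and up to 0.0751 without non-tumour 1 or non-tumour 186). Etfa had a change of -0.39 ± 0.18 (adjusted p = 0.162) that was called with deposited values (-0.69, adjusted p = 0.00902).

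In the later steps, hydration, second oxidation and thiolysis, 6 of 7 genes were called lower in tumour against non-tumour (13.4% of all genes tested were). Hadha and Hadhb encode both subunits of the trifunctional protein, which carries out these steps on long chains. Their starts lie 273 bases apart on opposite strands of chromosome 5 (30154980 for Hadha and 30155253 for Hadhb, GRCm38.p6), so that the same stretch lies upstream of both genes. Whether this stretch takes part in the changes of either gene was not tested. The 250 bases before the Hadhb start (chr5:30155003-30155252, plus strand, RefSeq) lie between the starts and are shown because the pair shares them:
Hadhb upstream: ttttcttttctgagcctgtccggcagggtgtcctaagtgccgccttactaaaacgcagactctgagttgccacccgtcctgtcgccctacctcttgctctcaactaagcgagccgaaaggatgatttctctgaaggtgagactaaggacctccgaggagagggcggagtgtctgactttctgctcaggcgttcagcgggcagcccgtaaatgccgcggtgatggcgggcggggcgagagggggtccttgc

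Hadha had levels of 919.0 and 827.6 in normal diet liver, 989.0, 1049.8 and 1117.4 in non-tumour tissue and 571.1, 567.8 and 649.3 in tumours. Hadhb had levels of 1254.3 and 1324.4, then 1695.8, 1756.3 and 1830.7, and then 887.3, 1072.3 and 941.9 in tumours. On deposited levels non-tumour tissue was highest and tumours lowest in both genes, without overlap. After quantile normalization tumour against normal diet was not called for Hadha (-0.08, adjusted p = 0.262) or Hadhb (0.10, adjusted p = 0.535). With deposited values Hadha was called (adjusted p = 0.0191), and the sign of Hadhb turned. The log2 change in tumour against non-tumour was -0.50 ± 0.04 for Hadha (adjusted p = 0.000736) and -0.56 ± 0.10 for Hadhb (adjusted p = 0.00741). With diet it was 0.43 ± 0.05 for Hadha (adjusted p = 0.00979, and 0.078 without normal diet 120) and 0.67 ± 0.11 for Hadhb (adjusted p = 0.028, and up to 0.173 without any 1 of the 5 arrays compared). With deposited values the diet change of Hadha was 0.27 and was not called (adjusted p = 0.333).

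Eci1, which moves double bonds of unsaturated chains, had levels of 2483.2 and 2824.4 in normal diet liver, 2582.8, 3120.3 and 2693.4 in non-tumour tissue and 1142.8, 1188.4 and 844.6 in tumours. Its change was the largest of the mitochondrial spiral, at -1.12 ± 0.19 (adjusted p = 0.00688). Against normal diet it was -0.75 ± 0.21 (adjusted p = 0.0389), a call that ended without either normal diet array, non-tumour 1, non-tumour 117 or tumour 117 (adjusted p up to 0.194). Hadh, the dehydrogenase of shorter hydroxyacyl chains, had levels of 3419.2 and 3382.5, then 4238.7, 4747.5 and 3929.1, and then 1919.1, 2245.7 and 1579.1 in tumours, a log2 change of -0.86 ± 0.17 (adjusted p = 0.0124). Both genes had their lowest deposited levels on the 3 tumour arrays. The fit of Hadh in tumour against normal diet was not called (-0.26, adjusted p = 0.356).

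Acaa2, the mitochondrial thiolase, had levels of 3517.5 and 3702.3, then 2707.4, 2860.2 and 3149.0, and then 1330.9, 1687.0 and 1549.8 in tumours. It was called lower in tumours against both non-tumour (-0.65 ± 0.10, adjusted p = 0.00491) and normal diet (-0.67 ± 0.11, adjusted p = 0.00616). Decr1, which reduces dienoyl chains, had a change of -0.85 ± 0.20 (adjusted p = 0.0257), and its call ended without non-tumour 117, non-tumour 186, tumour 1 or tumour 186 (adjusted p up to 0.0736). Echs1, the enoyl-CoA hydratase, was not called at -0.27 ± 0.15 (adjusted p = 0.254), although its tumour levels (596.4 to 791.1) were all below its non-tumour levels (925.2 to 1267.5).

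The RefSeq table used here held promoter windows for 33 of the 41 genes, each 300 bases long from 250 before to 50 after a RefSeq start. A pair of AGGTCA copies (AGGTCA, any base, AGGTCA) is the site type PPAR alpha and RXR are known to bind, and it was searched on both strands, as was a single AGGTCA, which any pair also holds. It was found in 0 of the 33 genes and in 0.0396% of 32851 windows, which says only that these letters are not in this window. A single AGGTCA copy was found in 5 of 33 (Acadm, Acadvl, Cpt1a, Creb3l3 and Echs1), and in 16.3% of all windows and 18.1% of all genes with a window. The copy in Acadvl lies 87 to 82 bases before the start and is shown in capitals within the 250 bases before it (chr11:70015429-70015678, minus strand, GRCm38.p6), to let a reader see the letters searched for:
Acadvl upstream: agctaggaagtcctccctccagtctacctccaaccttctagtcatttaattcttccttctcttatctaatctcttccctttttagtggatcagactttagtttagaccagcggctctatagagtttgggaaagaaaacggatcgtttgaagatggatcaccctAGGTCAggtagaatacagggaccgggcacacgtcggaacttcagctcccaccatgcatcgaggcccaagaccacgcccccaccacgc

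Of 12 peroxisomal genes measured, 9 were called lower in tumour against non-tumour (13.4% of all genes tested were), 1 higher (12%) and 2 were not called. Their median was -1.14 against -0.61 for the mitochondrial spiral (the 2 medians were not compared by a test). In non-tumour against normal diet 1 was called higher (1.81% of all genes) and 1 lower (2.04%), with a median of 0.25 against 0.40. In tumour against normal diet 6 were called lower (15% of all genes) and 1 higher (12.9%). The starts of Nudt7, Acaa1b and Pex11a, which had the largest falls of this group, are shown as the 250 bases before the RefSeq start (GRCm38.p6; chr8:114133324-114133573 plus strand, chr9:119157094-119157343 minus strand and chr7:79743132-79743381 minus strand), and their windows held no copy of either motif:
Nudt7 upstream: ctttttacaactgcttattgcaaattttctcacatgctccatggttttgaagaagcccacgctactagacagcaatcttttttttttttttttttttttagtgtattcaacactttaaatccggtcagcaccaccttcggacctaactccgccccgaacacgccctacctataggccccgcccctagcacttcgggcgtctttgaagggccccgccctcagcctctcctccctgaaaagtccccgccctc
Acaa1b upstream: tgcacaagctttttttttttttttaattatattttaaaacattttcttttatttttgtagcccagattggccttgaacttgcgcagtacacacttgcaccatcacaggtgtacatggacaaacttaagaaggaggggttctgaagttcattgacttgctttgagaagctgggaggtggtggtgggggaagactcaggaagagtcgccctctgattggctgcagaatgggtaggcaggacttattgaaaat
Pex11a upstream: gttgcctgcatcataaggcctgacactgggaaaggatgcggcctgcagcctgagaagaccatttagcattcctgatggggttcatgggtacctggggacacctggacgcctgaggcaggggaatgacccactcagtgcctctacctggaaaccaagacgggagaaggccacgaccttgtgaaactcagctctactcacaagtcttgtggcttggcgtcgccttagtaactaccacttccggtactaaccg

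Nudt7, which hydrolyses coenzyme A inside peroxisomes, fell in each comparison. Its levels were 8419.9 and 7239.0 in normal diet liver, 3039.9, 2190.0 and 2110.2 in non-tumour tissue and 698.5, 594.8 and 444.1 in tumours. The 3 groups did not overlap. The log2 change was -1.40 ± 0.26 with diet (adjusted p = 0.0413), -1.77 ± 0.23 in tumour against non-tumour (adjusted p = 0.0031) and -3.18 ± 0.26 in tumour against normal diet (adjusted p = 0.000593), a 9.04-fold difference. The diet call ended on leaving out any 1 array other than tumour 1 (adjusted p up to 0.218). Its relative Nudt19 was not called, with levels of 270.6 and 260.1, then 165.0, 153.0 and 194.3, and then 163.6, 224.5 and 198.5 in tumours, where tumour and non-tumour tissue overlapped (0.27 ± 0.10, adjusted p = 0.0932).

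Acaa1b, a peroxisomal thiolase, was the brightest gene of the set, at 19413.5 and 20489.8 in normal diet liver, 25876.1, 31464.9 and 28440.4 in non-tumour tissue and 9348.5, 8449.4 and 5232.2 in tumours. Tumours were lowest and non-tumour tissue highest, without overlap. Tumour against normal diet was not called in the fit (-0.98, adjusted p = 0.0591). The log2 change in tumour against non-tumour was -1.65 ± 0.28 (adjusted p = 0.00738). Its paralog Acaa1a, also on chromosome 9, was dim, at 83.3 and 90.5, then 90.3, 96.8 and 102.0, and then 25.8, 40.9 and 15.7, with a change of -0.96 ± 0.11 (adjusted p = 0.00208) that was -1.87 with deposited values. The genes are near copies, and how far each probe reads the other's transcript was not tested.

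Pex11a, which promotes the division of peroxisomes, was the third peroxisomal gene with a large fall in tumours. Its levels were 591.1 and 556.6 in normal diet liver, 1519.9, 1564.5 and 1173.1 in non-tumour tissue and 441.5, 480.1 and 266.4 in tumours. Non-tumour tissue was highest and tumours lowest, without overlap. Tumour against normal diet was not called in the fit (-0.17, adjusted p = 0.698). In log2 terms the difference was -1.57 ± 0.25 in tumour against non-tumour (adjusted p = 0.00633), while that with diet, 1.39 ± 0.29, was not called (adjusted p = 0.0533) and was called with deposited values (1.29, adjusted p = 0.0184).

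Ehhadh, the bifunctional enzyme of dicarboxylic chain oxidation, had levels of 1581.6 and 1178.7 in normal diet liver, 1322.4, 1543.2 and 1559.1 in non-tumour tissue and 466.8, 456.5 and 338.5 in tumours. Normal diet and non-tumour tissue overlapped and tumours lay below both. The fitted log2 change was -1.51 ± 0.17 against non-tumour (adjusted p = 0.00186) and -1.18 ± 0.19 against normal diet (adjusted p = 0.00606, and 0.0501 without normal diet 117). The second bifunctional enzyme, Hsd17b4, fell by 1.20 (adjusted p = 0.00788), Crot, which makes carnitine esters for export to mitochondria, by 1.12 (adjusted p = 0.0013), the transporter Abcd3 by 1.15 (adjusted p = 0.0012) and the isomerase Eci2 by 0.97 (adjusted p = 0.00553), all on the log2 scale in tumour against non-tumour. These 4 calls held without each array in turn. Decr2 was not called at -0.71 ± 0.23 (adjusted p = 0.0714), and was called with deposited values (-1.03, adjusted p = 0.00362) and with the mouse as a block (adjusted p = 0.021).

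Abcd2, a peroxisomal transporter of very long chains, went the other way and rose in each comparison. Its levels were 77.7 and 43.2 in normal diet liver, 170.5, 189.0 and 172.2 in non-tumour tissue and 626.3, 448.2 and 760.2 in tumours. The 3 groups did not overlap. The log2 change was 1.13 ± 0.20 with diet (adjusted p = 0.0383), 1.73 ± 0.18 in tumour against non-tumour (adjusted p = 0.00144) and 2.86 ± 0.20 in tumour against normal diet (adjusted p = 0.000385), a 7.28-fold difference. The diet call ended without any 1 of the 5 arrays compared or tumour 117 (adjusted p up to 0.206). Both transporters of the set thus changed in opposite directions in tumours, Abcd3 from 3836.6 to 4093.7 in non-tumour tissue down to 1380.5 to 1606.5.

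Omega oxidation had the steepest falls. Cyp4a14 and Cyp4a10, neighbours on chromosome 4 (chr4:115486200-115496158 and chr4:115518287-115533649, GRCm38.p6), encode omega-hydroxylases and are classical PPAR alpha targets. Cyp4a14 had levels of 2150.1 and 1641.9 in normal diet liver, 3017.4, 2894.5 and 4043.8 in non-tumour tissue and 435.9, 551.5 and 68.3 in tumours. Tumours lay below both groups, and the tumour of mouse 1 was far below the other 2 tumours: the non-tumour to tumour ratio was 6.92 in mouse 117, 5.25 in mouse 186 and 59.2 in mouse 1. The log2 change in tumour against non-tumour was -3.22 ± 0.66 (adjusted p = 0.0143), and with the mouse as a block it was not called (adjusted p = 0.0584). Tumour against normal diet was not called either (-2.14 ± 0.73, adjusted p = 0.0743), and was called without tumour 1 (-1.32, adjusted p = 0.00582) or tumour 186 (adjusted p = 0.0435).

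Cyp4a10 had levels of 1495.1 and 1224.9 in normal diet liver, 1625.9, 1818.7 and 1580.1 in non-tumour tissue and 284.6, 368.3 and 145.8 in tumours. The groups did not overlap, and the tumour of mouse 1 was again lowest. In log2 terms the difference was -2.37 ± 0.31 against non-tumour (adjusted p = 0.003) and -1.83 ± 0.35 against normal diet (adjusted p = 0.0103, and up to 0.074 without normal diet 117 or normal diet 120). Aldh3a2, the fatty aldehyde dehydrogenase that follows, was dim, at 29.8 to 38.7 on the 8 arrays. It showed a change of 0.00 ± 0.04 in tumour against non-tumour (adjusted p = 0.992).

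**Figure D4:**
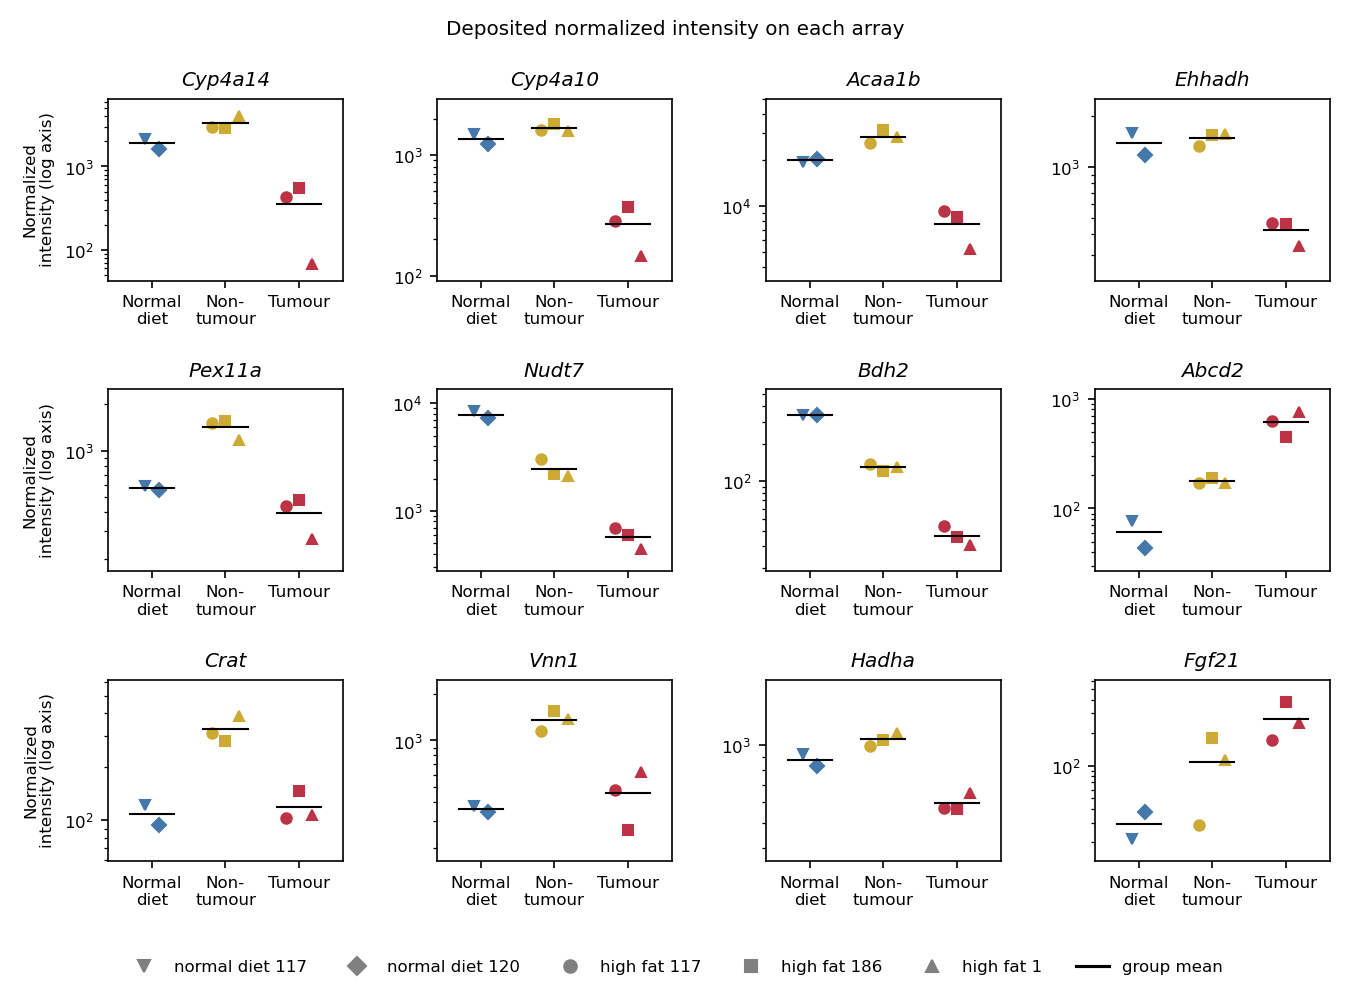
Deposited normalized intensity (y axis, log scale) of 12 genes on each of the 8 arrays by group (x axis), with bars at group means and a symbol for each mouse. Tumour levels are below all other arrays for Cyp4a14, Cyp4a10, Acaa1b, Ehhadh, Pex11a, Nudt7, Bdh2 and Hadha, and above all others for Abcd2.

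The ketogenic group of the members holds 2 genes, which moved apart, and further ketone body genes are given below. Bdh1, the mitochondrial dehydrogenase that makes 3-hydroxybutyrate, had levels of 1598.3 and 1533.4 in normal diet liver, 1915.1, 2254.6 and 2299.3 in non-tumour tissue and 1738.4, 2165.2 and 1985.5 in tumours. Both high fat tissues lay above normal diet liver and overlapped each other. The fitted log2 change was 0.70 ± 0.12 with diet (adjusted p = 0.0328), 0.82 ± 0.12 in tumour against normal diet (adjusted p = 0.00375) and 0.13 ± 0.11 in tumour against non-tumour (adjusted p = 0.457), the last with its sign turned by deposited values. With deposited values the first pair of differences was not called (0.46, adjusted p = 0.135, and 0.32, adjusted p = 0.161), and the diet call also ended without any 1 of the 5 arrays compared (adjusted p up to 0.176).

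Bdh2, a cytosolic relative of Bdh1, fell in each comparison. Its levels were 339.9 and 336.0 in normal diet liver, 138.1, 120.8 and 129.3 in non-tumour tissue and 43.3, 35.6 and 30.5 in tumours. The 3 groups did not overlap. The log2 change was -0.96 ± 0.09 with diet (adjusted p = 0.0064, and up to 0.0605 without normal diet 117 or normal diet 120), -1.07 ± 0.08 in tumour against non-tumour (adjusted p = 0.00061) and -2.03 ± 0.09 in tumour against normal diet (adjusted p = 9.21e-05). With deposited values, where no offset of 50 is added, these were -1.38, -1.81 and -3.19.

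Among the other PPAR alpha targets, Vnn1, which encodes a pantetheinase, had levels of 377.4 and 346.0 in normal diet liver, 1146.6, 1546.5 and 1374.6 in non-tumour tissue and 475.7, 263.3 and 628.9 in tumours. Non-tumour tissue lay above both other groups, which overlapped. In log2 terms the difference was 1.90 ± 0.32 with diet (adjusted p = 0.0323) and -1.33 ± 0.29 in tumour against non-tumour (adjusted p = 0.017). The diet call ended without any 1 of the 5 arrays compared or tumour 117 (adjusted p up to 0.173). The tumour call ended without non-tumour 1 or non-tumour 186 (up to 0.0565) and with the mouse as a block (0.0798). Tumour against normal diet was not called (0.56, adjusted p = 0.243), and was called without tumour 186 (0.89, adjusted p = 0.0162).

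Pdk4, a kinase that switches pyruvate dehydrogenase off, was dim, at 18.7 and 17.6 in normal diet liver, 80.7, 40.4 and 52.1 in non-tumour tissue and 28.0, 27.9 and 24.2 in tumours. The 3 groups did not overlap, with non-tumour tissue highest. Tumour against normal diet was not called in the fit (0.20, adjusted p = 0.38). The change in tumour against non-tumour was -0.50 ± 0.13 (adjusted p = 0.0362), and the call ended on leaving out any 1 array other than non-tumour 117 or non-tumour 186 (adjusted p up to 0.0943). The change with diet was not called (0.70 ± 0.15, adjusted p = 0.0596). It was called with deposited values (1.56, adjusted p = 0.00751), an offset of 16 (1.13, adjusted p = 0.0227), median scaling (0.74, adjusted p = 0.0415) and without non-tumour 117 (0.54, adjusted p = 0.0346).

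Fgf21, a hormone the liver secretes under PPAR alpha control, had levels of 21.2 and 37.6 in normal diet liver, 28.6, 180.4 and 113.4 in non-tumour tissue and 171.8, 381.7 and 244.0 in tumours. Tumours lay above normal diet liver and overlapped non-tumour tissue, where mouse 117 was as low as normal diet liver. Within each mouse the tumour was higher, by 6.01, 2.12 and 2.15 times in mice 117, 186 and 1. Tumour against normal diet was called at 2.15 ± 0.50 (adjusted p = 0.021, and up to 0.123 without normal diet 117 or normal diet 120). Tumour against non-tumour was not called at 1.25 ± 0.44 (adjusted p = 0.0898), was called with the mouse as a block (adjusted p = 0.0255) and was called without non-tumour 186 (adjusted p = 0.0481).

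Within mice, 36 of the 41 genes (87.8%) had a lower deposited level in the tumour than in the non-tumour tissue of the same liver in all 3 mice, as had 33.0% of 15505 genes listed on the 6 high fat arrays. Ppargc1a on its brighter probe, Abcd2 and Fgf21 were higher in all 3 mice (7.32%, against 22.9% of all genes), and Nudt19 and Aldh3a2 were mixed. The median log2 ratio of the 41 genes was -1.03 in mouse 117, -0.86 in mouse 186 and -1.21 in mouse 1, and that of all genes was -0.20, 0.07 and -0.11.

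Across the 3 comparisons the called genes fell into a few patterns. Crat, Acads, Hadha, Hadhb and Vnn1 were higher with diet, lower in tumour against non-tumour and not called in tumour against normal diet. Etfdh, Acaa2, Eci1, Ehhadh, Acaa1a, Eci2, Crot, Abcd3 and Cyp4a10 were not called with diet and were lower in tumours against both tissues. Cpt2, Slc25a20, Acadm, Acadvl, Etfb, Hadh, Decr1, Acaa1b, Hsd17b4, Pex11a, Cyp4a14 and Pdk4 were called in tumour against non-tumour alone. Nudt7 and Bdh2 were lower in all 3 comparisons and Abcd2 was higher in all 3. Ppara, Creb3l3, Cpt1a, Etfa, Echs1, Decr2, Nudt19 and Aldh3a2 were called in 0 of 3. These classes depend on the scaling. With deposited values Cpt2, Acadm, Acadvl, Etfb, Hadh, Decr1, Acaa1b, Hsd17b4, Cyp4a14, Acads and Hadha were also called lower in tumour against normal diet. Of the genes called in 0 of 3, Etfa, Echs1 and Decr2 were then called lower in tumours against both tissues, and Ppara against non-tumour tissue. Pex11a and Pdk4 were called higher with diet, and the diet calls of Acads, Hadha, Hadhb, Acadl and Bdh1 ended. The calls of Acadl and Bdh1 in tumour against normal diet ended too. That a gene was called in a comparison and not in another does not show that its changes differ, since those differences were not tested.

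**Figure D5:**
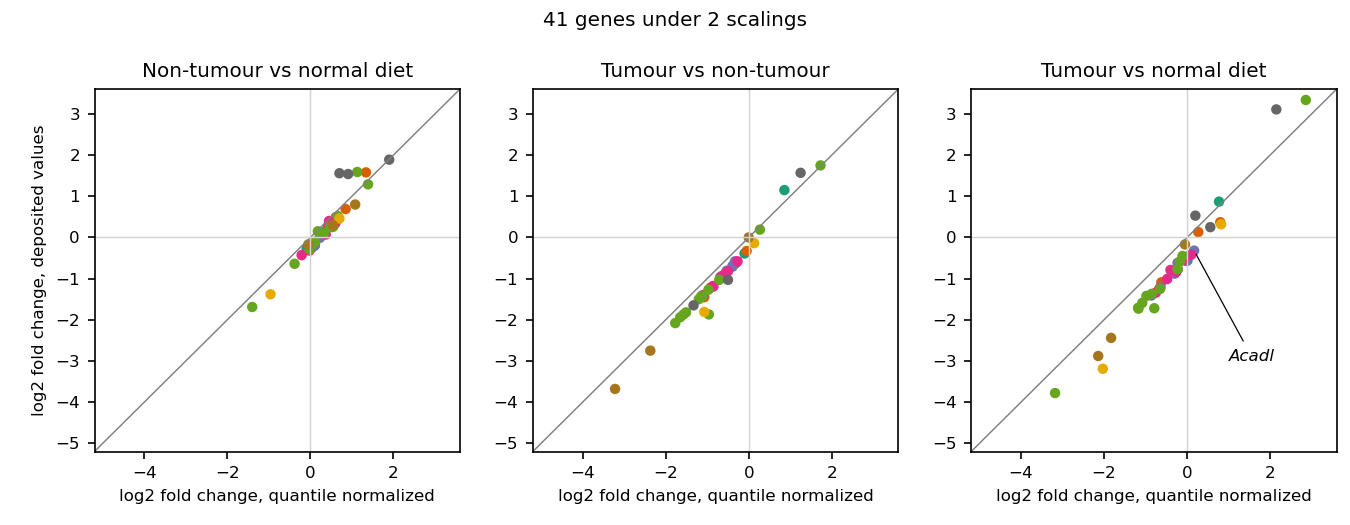
Log2 fold change of the 41 genes with deposited values (y axis) against that after quantile normalization (x axis) in the 3 comparisons, with a line of equality and points coloured by role group as in the plot of fold changes. Points lie mostly below the line in the right panel, and Acadl there is at 0.17 on the x axis and -0.32 on the y axis.

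Other genes of the pathway, from lists that leave out the members, also tended to be lower in tumours. The lists were chosen with earlier results of these data known, so they are not independent evidence. In tumour against non-tumour 13.4% of all genes tested were called lower and 12% higher. Of 15 further mitochondrial oxidation enzymes 13 were called lower and 1 higher in tumour against non-tumour (median -0.73). The largest were Hsd17b10 at -1.02 (adjusted p = 0.000452), Mcee at -0.96 (adjusted p = 0.00258), Pcca at -0.91 (adjusted p = 0.000532) and Ech1 at -0.85 (adjusted p = 0.00499). The higher call, Echdc3 at 0.24 (adjusted p = 0.00279), turned to -0.07 with deposited values. Of 22 further peroxisomal genes 14 were lower and 8 were not called (median -0.52), led by the lyase Hacl1 at -1.58 (adjusted p = 0.00686), the reductase Pecr at -1.41 (adjusted p = 0.0129), the sterol carrier and thiolase Scp2 at -1.03 (adjusted p = 0.0104) and catalase, Cat, at -0.87 (adjusted p = 0.009). Ech1 stands in both lists.

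Of 21 further PPAR alpha targets and fatty acid handling genes 10 were lower and 3 higher in tumour against non-tumour (median -0.74). Over all genes tested 13.4% were lower and 12% higher, and the 3 higher of 21 are near that share. The lower ones were led by Cyp8b1, a bile acid enzyme, at -2.66 (adjusted p = 0.00293), Cyp4a31 at -2.00 (adjusted p = 0.00494), Cyp4a12a at -1.80 (adjusted p = 0.00952) and the epoxide hydrolase Ephx2 at -1.67 (adjusted p = 0.00428). The 3 higher ones were the acyl-CoA synthetases Acsl3 at 0.97 (adjusted p = 0.0041), Acsl4 at 0.96 (adjusted p = 0.0024) and Acsl5 at 1.33 (adjusted p = 0.00441), which lie outside the rule for naming and were chosen after their values were seen. Cyp4a31 and Cyp4a10 are close relatives, and cross-reading of their probes was not tested.

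Of 6 further ketone body genes, Slc16a6, a transporter, was higher in tumours at 1.19 (adjusted p = 0.00127) and Slc16a7 lower at -0.43 (adjusted p = 0.0458, and up to 0.126 without either normal diet array, non-tumour 117, non-tumour 186, tumour 117 or tumour 1). The other 4 ketone body genes were not called, and the median of the 6 was -0.01, with a range of -0.62 to 1.19. The list held 8 names, of which 6 had a probe. Over all genes tested 13.4% were lower and 12% higher. Of 18 partners and upstream regulators 7 were lower and 1 higher. They include the mitochondrial deacetylase Sirt3 at -1.25 (adjusted p = 0.0037), Pparg at -0.89 (adjusted p = 0.00151), the AMP kinase subunit Prkaa2 at -0.70 (adjusted p = 0.0205, and up to 0.066 without non-tumour 117, non-tumour 186, tumour 186 or tumour 1) and Rxrg at -0.43 (adjusted p = 0.00499). The higher one was Prkaa1 at 0.22 (adjusted p = 0.0131), which was not called with deposited values (adjusted p = 0.05).

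Markers of cell types were read beside these results, where 12% of all genes tested were higher and 13.4% lower in tumour against non-tumour. Of 10 hepatocyte markers in tumour against non-tumour, 3 were called higher (Apoa1, Fgb and Ahsg), 2 lower (Cps1 and Cyp2e1) and 5 not called, with Alb at 0.04. The summed hepatocyte marker level was 184803.3 to 208332.6 in non-tumour tissue, 204169.3 to 226622.1 in tumours and 245272.4 to 250361.5 in normal diet liver. Of 9 Kupffer cell and macrophage markers 3 were lower in tumours, and their sum was 1288.0 to 1502.0 in non-tumour tissue and 507.1 to 703.7 in tumours. Of 8 endothelial markers 1 was higher in tumours and 7 were not called (median log2 change 0.12), and the sum, mostly Clec4g, was 746.6 to 841.7 in non-tumour tissue and 527.2 to 780.9 in tumours. Of 9 stellate cell and fibroblast markers 1 was higher (Col3a1), 1 lower (Lrat) and 7 were not called (median 0.10), with sums of 1486.8 to 2030.8 and 1149.2 to 1814.6. The cholangiocyte sum was 122.6 to 174.5 in non-tumour tissue and 2102.7 to 4798.6 in tumours, nearly all of it Tspan8. Cftr of that list was lower at -0.18 (adjusted p = 0.016), and Krt7, Krt19, Epcam and Sox9 were not called. The 8 T, NK and B cell markers had values of -0.06 to 0.04 in tumour against non-tumour, without a call, and summed to 36.4 to 52.5 on the 8 arrays. The adipocyte hormone gene Adipoq was listed on no array, Lep on 1, and the sum of that list, mainly Cidec, was 57.2 to 58.1 in normal diet liver, 324.3 to 402.7 in non-tumour tissue and 120.0 to 255.8 in tumours. Muscle sums were 31.0 to 46.5. Of 4 red blood cell markers 3 (Alas2, Car1 and Epb42) were lower in tumours against non-tumour (median -0.54) and against normal diet (median -0.71). Their sums were 1598.3 to 1729.9 in normal diet liver, 2306.4 to 8770.5 in non-tumour tissue and 1311.5 to 3094.7 in tumours. The part of other cells in the changes above was not tested.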

How the data were processed

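Total RNA of 8 liver samples was measured on 1-colour Cy5 arrays. The deposited intensity could be rebuilt from the scanner files as each spot's median, less the blank spots' mean, over 1 factor per array (r2 = 1 on every array), and probes near the blank level carry no value. Per the labels' protocols, RNA was amplified with aminoallyl nucleotides and coupled to dye. The platform table pairs 20690 of the 23473 probes with 1 symbol and leaves 2783 unnamed, which gives 19321 genes. Testing needed a value on every array of 1 or more groups (16799 genes).

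For the tests, scanner spot medians were corrected by normexp, whose negative controls were the blank spots. An offset of 50 was added, and arrays were then quantile normalized on the log2 scale. Group means were fitted over 8 arrays with limma 3.58.1 in R 4.3.3 (5 residual and 1.49 prior degrees of freedom), with 2-sided p-values adjusted by Benjamini-Hochberg across the genes tested. On simulated data with 200 changed genes among 16799, a log2 change of 1 was called in 97% of genes in tumour against non-tumour, 94% in non-tumour against normal diet and 92.5% in tumour against normal diet, and one of 0.5 in 83.6%, 82.1% and 85.1%. The changed genes were drawn from all genes tested, so these shares are not those of the members. The simulated noise was independent and normal, with the spread limma had fitted to each gene, which real arrays need not follow. With diet, Pex11a (1.39 ± 0.29) and Cpt1a (0.85 ± 0.26) were not called, and a change without a call may still be present. Tumour and non-tumour arrays pair by liver per the labels; the correlation of their deviations from group means was 0.443, 0.148 and 0.167 in the same mouse and -0.275 to 0.028 between mice. Replicates are separate mice. The number of arrays limits the precision.

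Alternatives were subtraction of the mean blank signal, local background, an offset of 16, median scaling, deposited values as log2(value + 1), no filter, genes listed on all 8 arrays, the mean of probes, the compared groups alone, the mouse as a replicate block and leaving out each array. All 44 genes are named. Values per array are given for the called genes with the largest change, up to 4 in each role group, for the regulators, and for genes moving against their group; further pathway lists give up to 4 called genes, and promoters are of the 6 largest called changes, of which 3 had a window. Other genes with values per array, and the upstream stretches of Hadhb and Acadvl, were chosen after their values were seen. Members, lists and rules were chosen with earlier results of these data known. Tables were made in Python 3.11.15 with pandas 2.3.3. Promoter sequences are from RefSeq (GRCm38.p6).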

Additional observations from a re-analysis of the deposited data

How the results depend on the processing

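The counts of changed members stayed within 1.5 times of 31 (tumour against non-tumour), 10 (non-tumour against normal diet) and 16 (tumour against normal diet) except as follows. With local background as the correction they were 4, 0 and 3. In that fit few genes of all 16799 were called (95 higher and 30 lower, 0 and 3, 130 and 87). An unadjusted p under 0.05 by limma was held by 20, 7 and 11 members and by 1761, 801 and 2106 genes. No other tool was run. The rank correlation of the local reading with its own spot was 0.902 to 0.96, and why the calls ended was not tested. Median scaling gave 16 members in non-tumour against normal diet, and deposited values gave 28 in tumour against normal diet. Leaving out arrays gave 24 to 29, 1 to 14 and 10 to 20. The replicate block on mouse gave 29 in tumour against non-tumour, 27 of them shared with the 31: it ended Slc25a20, Acadvl, Cyp4a14 and Vnn1, added Decr2 and Fgf21, and changed no other call.

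Called directions that turned were Acaa2 (0.19 in tumour against non-tumour and 0.55 in tumour against normal diet) and Hadha (-0.07 in non-tumour against normal diet), all with local background, and Acadl (-0.32 in tumour against normal diet) with deposited values. The cause was not tested. At 2 decimals, signs of 1, 7 and 4 members differed between quantile normalized and deposited values (Aldh3a2, at 0.00 in both, is not counted) in tumour against non-tumour, non-tumour against normal diet and tumour against normal diet. Of all called genes, 47.1%, 47.1% and 46.2% were higher in these comparisons, 37.3%, 77.2% and 39% with median scaling, and 40.8%, 39.5% and 31.9% with deposited values. In non-tumour against normal diet 304 genes were called higher and 342 lower, and 1084 and 320 with median scaling. Signal over background limits the dim genes Aldh3a2, Pdk4, Fgf21 and Acaa1a, whose changes the offset shrinks.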

Other observations

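In non-tumour against normal diet 6 of 81 further pathway genes were called higher (1.81% of all genes tested) and 3 lower (2.04%). The 6 were Cd36, Mogat1, Plin2, Pparg, Slc16a1 and Slc16a7, and the 3 were Cyp4a12a, Cyp4a12b and Phyh. Cd36, a fatty acid transporter, had levels of 473.7 and 309.1 in normal diet liver and 1814.8, 2038.8 and 1923.6 in non-tumour tissue, a log2 change of 2.33 (adjusted p = 0.0168, and up to 0.12 without either normal diet array, non-tumour 117 or non-tumour 186). Mogat1, an acyltransferase of fat synthesis, had levels of 28.3 and 16.6, then 142.0, 175.8 and 169.4, and then 22.4, 29.6 and 14.4 in tumours. It changed by 1.62 with diet (adjusted p = 0.00254) and by -1.61 in tumour against non-tumour (adjusted p = 0.000423), and both calls held without each array. Plin2, the coat protein of lipid droplets, changed by 1.41 with diet (adjusted p = 0.00979, and up to 0.0759 without either normal diet array) and stayed high in tumours, at 4861.5 to 7238.4 against 4910.6 to 6285.5. Pparg changed by 0.90 with diet (adjusted p = 0.0124, and up to 0.0809 without either normal diet array). The transporters Slc16a1 and Slc16a7 had changes of 0.53 (adjusted p = 0.0306) and 0.71 (adjusted p = 0.0457), and Phyh had one of -0.29 (adjusted p = 0.0223). The calls of Slc16a1 and Phyh ended without either normal diet array, non-tumour 186 or non-tumour 1. That of Slc16a7 ended without any 1 of the 5 arrays compared or tumour 117. With deposited values Slc16a1 (0.51, adjusted p = 0.133) and Phyh (-0.53, adjusted p = 0.0673) were not called. Phyh was not called with median scaling either, and its sign turned with local background. Apart from Pparg, Slc16a7 and Cyp4a12a these genes lie outside the rule for naming and were chosen after their values were seen.

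Cyp4a12a and Cyp4a12b, further omega-hydroxylases on chromosome 4, were lower in non-tumour tissue than in normal diet liver. The labels do not give the sex of the mice, and its part in this difference was not tested. Cyp4a12a had levels of 1412.5 and 1855.7 in normal diet liver, 328.7, 195.4 and 114.0 in non-tumour tissue and 34.0, 27.1 and 10.5 in tumours. Its log2 change with diet was -2.50 (adjusted p = 0.0217, and up to 0.143 without either normal diet array or non-tumour 186), and that of Cyp4a12b was -2.22 (adjusted p = 0.00575, and 0.0503 without normal diet 120). These are near copies, and cross-reading of their probes was not tested.

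The tumour of mouse 1 was the lowest of the 3 tumours for 24 of the 41 genes (58.5%), and for 3407 of 15505 genes. Its hepatocyte marker sum, 226622.1, was the highest of the tumours, and its Cyp2e1 level was 1305.1 against 5359.0 and 7217.8.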
